A study of Mus musculus with 18 samples.

Results

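A set of 33 genes of the blood and lymphatic vessel wall was followed through mouse colon in acute colitis: 11 genes of the endothelial surface and junctions, 7 receptors, 7 growth factors, 2 genes of sprouting vessels, 3 transcription factors and 3 lymphatic genes. They were taken by symbol from a table of 35976 gene symbols, and all 33 were present. RNA sequencing had been carried out on 18 colon libraries of day 2, with 6 per group. Colitis mice given ISM012-042 had TNBS, a hapten that inflames the colon, together with the compound, which the series title describes as an AI-developed inhibitor of PHD acting only in the gut. Vehicle mice had TNBS without the compound, and sham mice had neither. The labels give no strain, age or dose. They do not say whether each library is a separate animal, and the p-values therefore reflect the spread among libraries, which may be technical.

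Endothelial cells line vessels and are held together by adherens and tight junctions. VEGF ligands act through the receptors Flt1, Kdr and Flt4, angiopoietins act through Tek with Tie1 as its partner, and a sprouting tip cell restrains its neighbours through the Notch ligand Dll4. Prox1 sets lymphatic identity, and Vegfc acting on Flt4 drives lymphatic growth. PHD enzymes mark hypoxia-inducible factor for degradation, and that factor is known to switch on Vegfa, Flt1 and other vessel genes in oxygen-poor tissue.

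Upstream sequence was available in RefSeq (GRCm38.p6, the assembly of mm10) for 20 of the 33 genes, in 26 windows. The letters CAGGAA, a core bound by ETS factors such as Erg, stood on either strand of the 250 upstream bases in 34.6% of these windows, against 25.7% of all 32851 windows. The core of the hypoxia response element, ACGTG or GCGTG, stood in 38.5% of them, against 38.6% of all windows, and AACAAT, a SOX core, in 11.5%, against 9.42%. Matches to different motifs may share letters, and ACGTG overlaps its own reverse complement within CACGTG. Sequences from 3 genes are shown 5′ to 3′, cut where the first RefSeq or GENCODE transcript begins, with CAGGAA and the hypoxia core in capitals on either strand. Emcn is shown for its ETS letters. Robo4 is shown as a gene whose ISM012-042 and sham libraries did not overlap in unscaled TPM. The kept stretch holds none of these letters, but an uncut 250-base window of Robo4 holds CAGGAA and counts toward the 34.6%. Vegfb is shown as the VEGF ligand of highest level among the 33 genes, and it holds the hypoxia core.
Emcn, chr3:137340828-137341061, plus strand: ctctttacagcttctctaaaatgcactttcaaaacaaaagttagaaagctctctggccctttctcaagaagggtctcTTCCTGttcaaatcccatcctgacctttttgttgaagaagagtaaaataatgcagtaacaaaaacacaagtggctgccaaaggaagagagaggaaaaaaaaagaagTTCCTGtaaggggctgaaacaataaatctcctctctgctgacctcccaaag
Robo4, chr9:37401722-37401896, plus strand: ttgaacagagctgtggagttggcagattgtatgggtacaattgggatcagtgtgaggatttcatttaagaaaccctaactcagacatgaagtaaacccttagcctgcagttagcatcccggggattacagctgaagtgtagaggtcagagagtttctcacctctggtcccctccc
Vegfb, chr19:6987652-6987901, minus strand: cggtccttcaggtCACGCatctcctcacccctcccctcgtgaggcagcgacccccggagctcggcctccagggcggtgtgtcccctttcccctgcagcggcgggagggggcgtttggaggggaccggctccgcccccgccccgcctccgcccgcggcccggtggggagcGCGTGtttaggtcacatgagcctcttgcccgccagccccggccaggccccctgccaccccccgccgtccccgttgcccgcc

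Values are TPM, a level scaled by gene length and library total that keeps no record of depth, so the depth is unknown. Per library 12681 to 14632 genes reached 1 TPM, and genes of the mitochondrial genome took 20.1% to 57.76% of the total. Hoxb13, a gene of the distal colon, had a median of 59.74 TPM in ISM012-042, 43.93 TPM in vehicle and 223.98 TPM in sham libraries, so the group medians of this marker of position were unequal. In whole tissue, more endothelial cells and more RNA per endothelial cell cannot be told apart.

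One library stood apart before any comparison was made. ISM012-042 replicate 2 was the highest of the 18 libraries for 29 of the 31 endothelial genes that could be tested, against 35.0% of all 14129 genes tested. The exceptions were Vegfb and Pgf. In 22 of the 31 genes it held more than 2 times the next library, which was so for 2.95% of all genes. The 33 genes summed to 817 TPM in it, and to between 102 TPM (sham replicate 1) and 285 TPM (vehicle replicate 2) in the other libraries. Its median deviation from each gene's 18-library median was 1.76 on the log2 scale for the 31 genes, against 0.40 for all genes tested.

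Markers of some other cells were also high in it, and those of others were not. The 6 fibroblast markers summed to 3091 TPM in ISM012-042 replicate 2, and to at most 851 TPM in any other library; all 6 were at their highest there. The 7 macrophage markers summed to 561 TPM in it, with at most 342 TPM elsewhere, and all 7 were at their highest there. The 6 platelet markers summed to 337 TPM, with at most 110 TPM elsewhere, and 3 of them were at their highest there. Pf4 gave 279 TPM and Ppbp 53.4 TPM of this, while Gp9 was listed at 0. Itga2b, at 1.42 TPM, lay below sham replicate 6 at 2.46 TPM. Gp1bb, at 2.04 TPM, lay below vehicle replicate 3 at 21.5 TPM. The 6 neutrophil markers summed to 6938 TPM in it, against 25023 TPM in vehicle replicate 2, and 8 mural cell markers to 237 TPM, where the highest other library had 267 TPM; 6 of these 8 were at their highest in it. The 4 squamous epithelium markers summed to 68.7 TPM, with at most 45.9 TPM elsewhere, and all 4 were at their highest there. The 6 enteric neuron and glia markers summed to 33.3 TPM, with at most 23.4 TPM elsewhere, and 2 of them were at their highest there. The 6 smooth muscle markers summed to 4203 TPM in it, where the highest other library had 5188 TPM, and 1 was at its highest there. For the 6 mesothelial markers the sums were 50.4 and 66.0 TPM, with 1 at its highest there. For the 6 adipocyte markers they were 533 and 1489 TPM, with 0 at their highest there. The mitochondrial share of ISM012-042 replicate 2, 20.1%, was the lowest of the 18. The part of these cells or of the mitochondrial share in the endothelial values was not tested. Most counts, medians and means of the 33 genes below are given with and without this library.

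**Figure D1:**
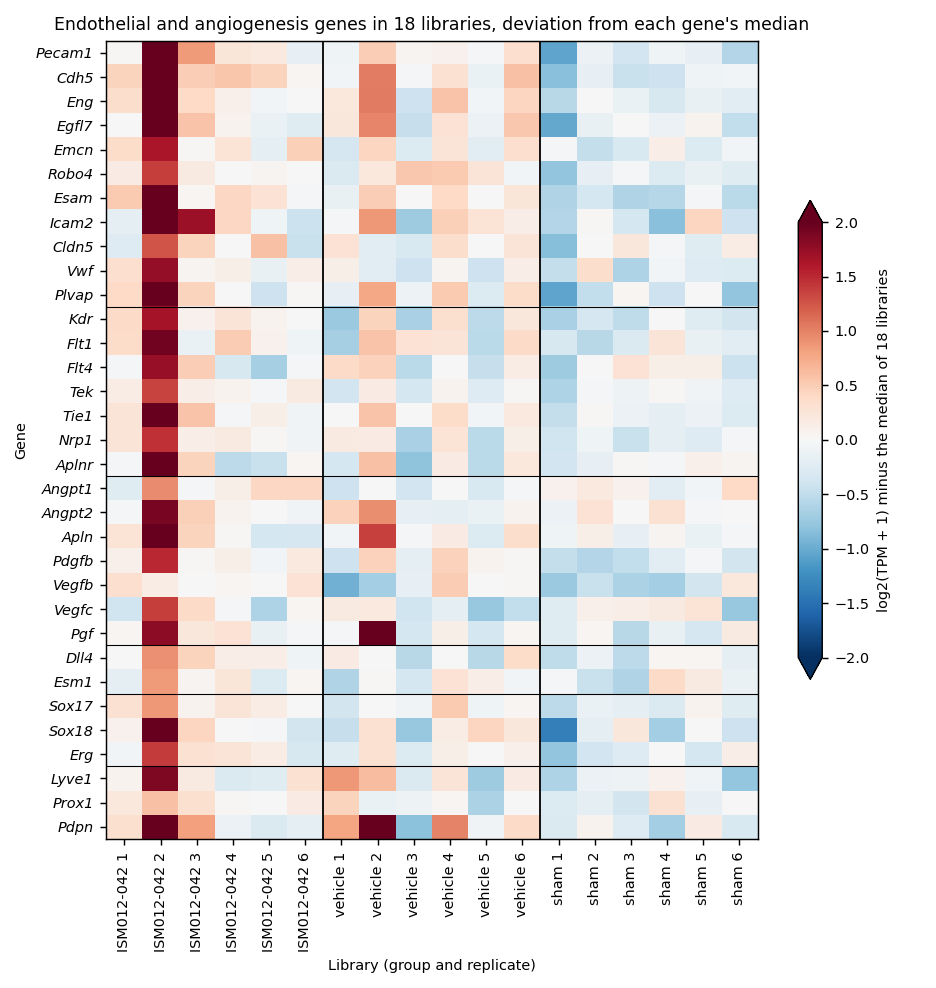
Level of each of the 33 genes (rows, grouped by role) in each of the 18 libraries (columns, ISM012-042, vehicle and sham), as log2(TPM + 1) minus the gene's median over the 18 libraries; colours end at 2 in either direction. The column of ISM012-042 replicate 2 is dark red through most rows, and that of sham replicate 1 is the bluest.

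**Figure D2:**
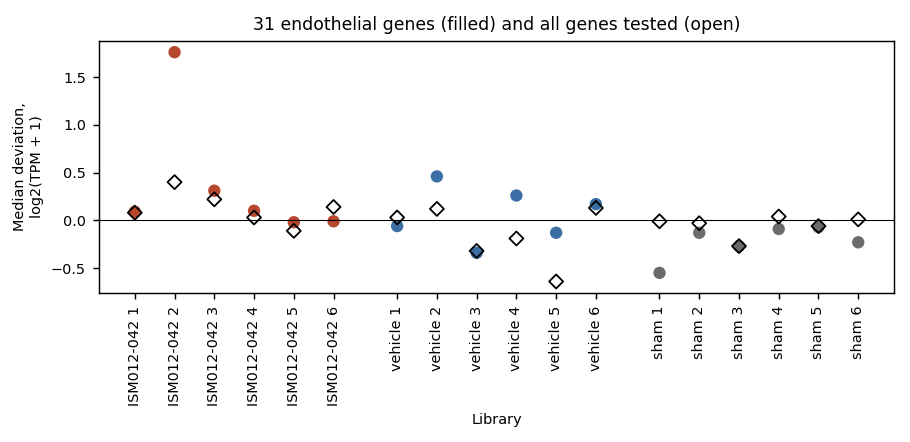
Median deviation, on the log2(TPM + 1) scale, from each gene's 18-library median, for the 31 tested endothelial genes (filled points) and all genes tested (open diamonds), by library. ISM012-042 replicate 2 reaches 1.76 for the endothelial genes and 0.40 for all genes, and sham replicate 1 lies at -0.55 and -0.01.

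Sham replicate 1 was the low end. It held the lowest value of the 18 libraries for 13 of the 31 genes, against 2.57% of all genes. Among them were Pecam1, Cdh5, Esam, Plvap, Tek, Tie1, Sox18 and Erg. With ISM012-042 replicate 2 left out, vehicle replicate 2 was the highest library for 10 of the 31 genes, against 21.5% of all genes.

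By mean level over the 18 libraries, Plvap led with 27.4 TPM, followed by Pecam1 at 18.9 TPM, Pdpn at 18.7 TPM, Vegfb at 17.5 TPM and Lyve1 at 15.9 TPM. The last 4 lay within one another's spread between libraries. Apln, at 0.875 TPM, and Sox17, at 0.885 TPM, were the lowest, and reached 1 TPM in 2 and 4 libraries; with fewer than 6 such libraries they were not tested. The other 31 were.

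No gene of the 31 passed the test in any comparison in limma, at an adjusted p under 0.05 with adjustment over all 14129 genes. Differences are on the log2(TPM + 1) scale, with their SE; on it the change of a low gene is understated. For vehicle against sham, 0 of 31 passed, where 4.46% of all genes did, 0.326% as higher and 4.13% as lower. For ISM012-042 against vehicle, 0 of 31 passed, as did 0.0% of all genes. For ISM012-042 against sham, 0 of 31 passed, where 1.42% of all genes did, 0.545% as higher and 0.871% as lower. At an unadjusted p under 0.05 limma gave 2, 1 and 19 of the 31 in these comparisons, all higher in the group named first, where all genes gave 3.16%, 18.9% and 16.3% as higher. With the Hoxb13 level as a covariate, 6 of the 31 passed for ISM012-042 against sham, Pecam1, Cdh5, Esam, Plvap, Dll4 and Lyve1, where 7.84% of all genes passed as higher; with the covariate and without ISM012-042 replicate 2, 0 of 29 passed, where 0.236% of all genes did. With mitochondrial genes left out of the total 2 passed there, Cdh5 and Esam, against 4.87% of all genes, and with only these groups in the fit 1 passed, Vegfb, against 3.38%.

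The direction was nearly uniform although the single tests did not pass. For vehicle against sham 28 of 31 differences were positive, with a median of 0.26, while 41.3% of all genes were positive, with a median of -0.07. For ISM012-042 against sham all 31 were positive, with a median of 0.59, beside 77.1% and 0.21 for all genes. For ISM012-042 against vehicle all 31 were positive, with a median of 0.35, beside 92.1% and 0.30 for all genes. The comparisons share libraries, so their signs are not independent of one another.

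Leaving out ISM012-042 replicate 2, which takes Angpt2 and Pgf under the filter and leaves 29 genes, moved the comparisons with the compound. The median for ISM012-042 against vehicle became 0.08, with 21 of 29 positive, beside 0.23 for all genes. For ISM012-042 against sham it became 0.35, with 26 of 29 positive, beside 0.16 for all genes. Esam then passed in both comparisons with sham, at 0.70 ± 0.16 for ISM012-042 (adjusted p = 0.0472 in limma, where 0.271% of all genes passed as higher) and at 0.61 ± 0.15 for vehicle (adjusted p = 0.0282, with 0.785% of all genes). The vehicle difference itself was the same with all 18 libraries, 0.61; its SE was then 0.27, since the groups share 1 estimate of the spread. Without the library, 6 of 29 genes passed as higher in vehicle than in sham with median-ratio scaling (Pecam1, Eng, Tie1, Plvap, Cdh5 and Esam, against 4.9% of all genes), and 5 of 29 with the Hoxb13 covariate (Pecam1, Egfl7, Lyve1, Plvap and Esam, against 1.73%).

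Scaling mattered for ISM012-042 against vehicle. With median-ratio scaling the median of all genes in that comparison was 0.02, in place of 0.30, with 55.2% of all genes positive. The endothelial median was 0.09 with 22 of 32 positive. With that scaling and without ISM012-042 replicate 2 it was -0.11, with 7 of 29 positive. The same scaling left a median of 0.34 for vehicle against sham and of 0.41 for ISM012-042 against sham, beside 0.02 and 0.03 for all genes. With that scaling and without the library, ISM012-042 against sham had an endothelial median of 0.22. Medians of all genes for this combined setting are not given here. The sign of the median difference between ISM012-042 and vehicle turned with the setting, while the medians against sham stayed positive in these settings.

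**Figure D3:**
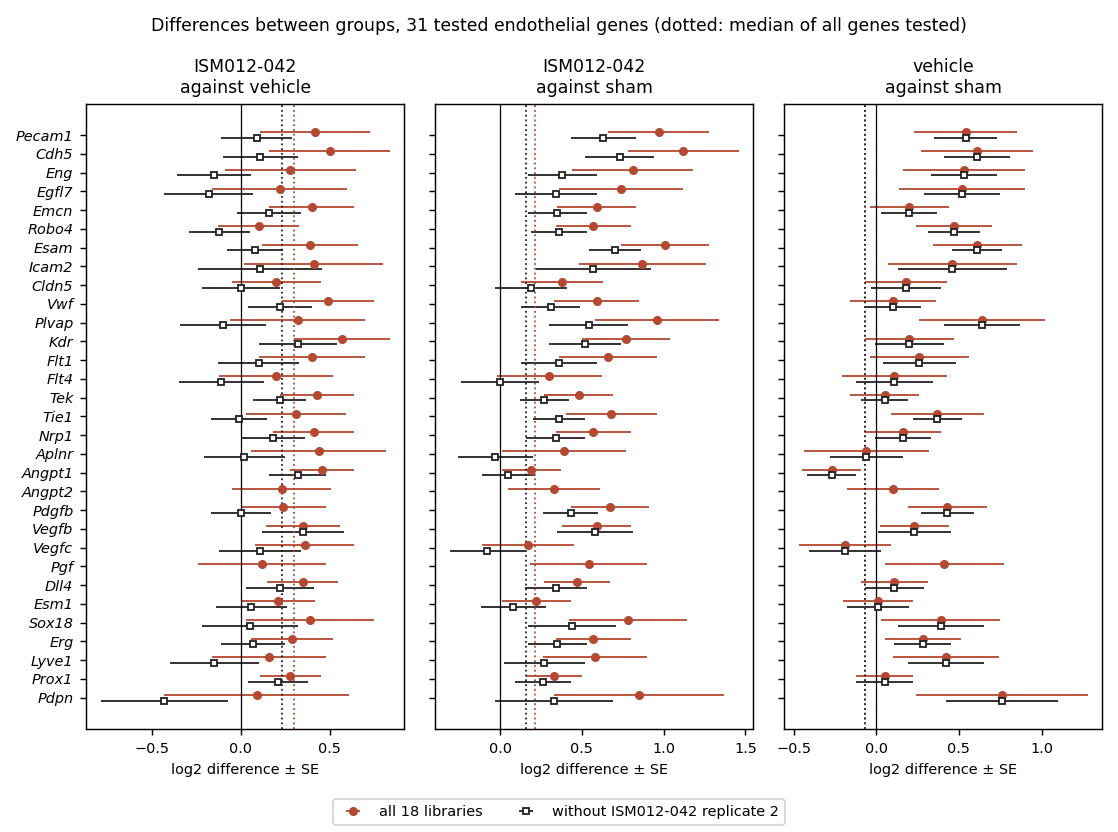
Differences on the log2(TPM + 1) scale with their SE for the 31 tested genes in the 3 comparisons, with all 18 libraries (filled circles) and without ISM012-042 replicate 2 (open squares; Angpt2 and Pgf then fall under the filter); dotted lines mark the median of all genes tested. Against vehicle the open squares lie around 0, with a median of 0.08, and against sham most lie to the right of the dotted line.

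The surface and junction genes mark endothelium as a whole. Their median difference was 0.52 for vehicle against sham, 0.39 for ISM012-042 against vehicle and 0.81 for ISM012-042 against sham, with all 11 positive in each. Without ISM012-042 replicate 2 the values with the compound were 0.08 against vehicle, with 7 of 11 positive, and 0.38 against sham, with all 11 positive. Esam (chromosome 9, 37528089 to 37538319, GRCm38.p6), an adhesion molecule of endothelial tight junctions also carried by platelets, had a lowest, median and highest value of 7.14, 9.60 and 35.1 TPM in ISM012-042 libraries, 6.45, 8.10 and 10.7 TPM in vehicle libraries, and 4.45, 4.69 and 7.13 TPM in sham libraries. Every ISM012-042 library lay above every sham library, though the closest pair were at 7.14 and 7.13 TPM. The difference was 1.01 ± 0.27 for ISM012-042 against sham (adjusted p = 0.0712 in limma, n = 6 each).

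Cdh5 (chromosome 8, 104101613 to 104144504), the cadherin of endothelial adherens junctions, ran from 4.68 to 35.9 TPM in ISM012-042 libraries with a median of 6.68, from 4.08 to 10.2 TPM in vehicle libraries with a median of 5.12, and from 2.10 to 4.34 TPM in sham libraries with a median of 3.54. ISM012-042 and sham libraries did not overlap. The value of ISM012-042 replicate 2 was 3.51 times that of the next library. The difference from sham was 1.12 ± 0.34 for ISM012-042 (adjusted p = 0.111 in limma) and 0.61 ± 0.34 for vehicle (adjusted p = 0.369). Without replicate 2 the first became 0.73 ± 0.21 (adjusted p = 0.113).

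Pecam1 (chromosome 11, 106654213 to 106715281), an adhesion molecule of endothelial junctions that leukocytes and platelets carry too, ran from 13.6 to 75.6 TPM in ISM012-042 libraries (median 17.8), from 14.4 to 21.7 TPM in vehicle libraries (median 16.1) and from 6.77 to 14.2 TPM in sham libraries (median 12.5). It was the 1 gene of the 31 whose vehicle libraries all lay above all sham libraries, which was so for 0.687% of all genes; ISM012-042 and sham libraries overlapped. The difference was 0.97 ± 0.31 for ISM012-042 against sham (adjusted p = 0.119 in limma) and 0.54 ± 0.31 for vehicle against sham (adjusted p = 0.37). Without ISM012-042 replicate 2 the first became 0.63 ± 0.20 (adjusted p = 0.157).

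Robo4 (chromosome 9, 37401902 to 37414023), a receptor that stabilizes vessels, ran from 2.33 to 7.79 TPM in ISM012-042 libraries (median 2.65), from 1.74 to 3.90 TPM in vehicle libraries (median 2.97) and from 0.952 to 2.27 TPM in sham libraries (median 1.95). The vehicle median was the highest of the groups, and ISM012-042 did not overlap sham. The difference was 0.57 ± 0.23 for ISM012-042 against sham (adjusted p = 0.182 in limma), and without replicate 2 it was 0.36 ± 0.17 (adjusted p = 0.346). Robo4 and Esam lie close together on chromosome 9.

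In all, 4 of the 31 genes, Cdh5, Robo4, Esam and Kdr, had every ISM012-042 library above every sham library, against 3.8% of all genes. Replicate 2 was the highest ISM012-042 library in each, so leaving it out cannot undo this. Without it the same 4 were counted, against 4.1% of all genes. The margins were narrow, with lowest ISM012-042 and highest sham values of 4.68 and 4.34 TPM for Cdh5 and 2.33 and 2.27 TPM for Robo4. They were 7.14 and 7.13 TPM for Esam and 4.61 and 4.51 TPM for Kdr. In all 4 the lowest ISM012-042 library was replicate 6. Its median-ratio size factor, 1.136, exceeded those of the sham libraries, 0.803 to 1.062, so scaling lowers it relative to sham. Divided by these factors, replicate 6 no longer lies above every sham library in any of the 4 genes. The separation therefore holds on unscaled TPM only. None of the 31 had ISM012-042 wholly above vehicle, against 0.651% of all genes, or 1.08% without ISM012-042 replicate 2, where again none did.

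The other surface genes are given as means with SD (n = 6). Plvap, which forms the diaphragms of endothelial fenestrae, averaged 41.3 ± 44.8 TPM in ISM012-042, 25.2 ± 7.83 TPM in vehicle and 15.8 ± 4.87 TPM in sham libraries. Eng, a co-receptor for TGF-beta family ligands, averaged 13 ± 15.3, 8.0 ± 3.20 and 4.97 ± 0.764 TPM in ISM012-042, vehicle and sham libraries. Egfl7, a secreted endothelial protein, averaged 14.5 ± 16.2 TPM in ISM012-042, 9.53 ± 3.68 TPM in vehicle and 6.20 ± 1.78 TPM in sham. In these 3 the SD of the ISM012-042 group exceeded its mean, and without replicate 2 the ISM012-042 means were 23.1, 6.79 and 7.98 TPM, below vehicle in each. Icam2, an adhesion molecule that binds leukocytes, averaged 6.19 ± 5.61 TPM in ISM012-042, 3.48 ± 1.52 TPM in vehicle and 2.23 ± 1.08 TPM in sham; without replicate 2 its ISM012-042 mean was 4.42 ± 3.98 TPM.

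Emcn, a sialomucin of capillary and venous endothelium, averaged 12.9 ± 7.61 TPM in ISM012-042, 8.82 ± 2.33 TPM in vehicle and 7.46 ± 1.31 TPM in sham. Vwf, the clotting glycoprotein of endothelium and platelets, averaged 3.07 ± 2.65, 1.59 ± 0.452 and 1.45 ± 0.618 TPM in ISM012-042, vehicle and sham. Cldn5, the claudin of endothelial tight junctions, averaged 7.2 ± 3.84 TPM in ISM012-042, 5.67 ± 1.27 TPM in vehicle and 4.95 ± 1.39 TPM in sham. For these 3 the gap between the vehicle and sham means was smaller than the vehicle SD. The differences of 0.20 ± 0.24, 0.10 ± 0.26 and 0.18 ± 0.25 did not pass. Without replicate 2 the ISM012-042 means were 9.84 ± 1.93 TPM of Emcn, 1.99 ± 0.352 TPM of Vwf and 5.84 ± 2.10 TPM of Cldn5.

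**Figure D4:**
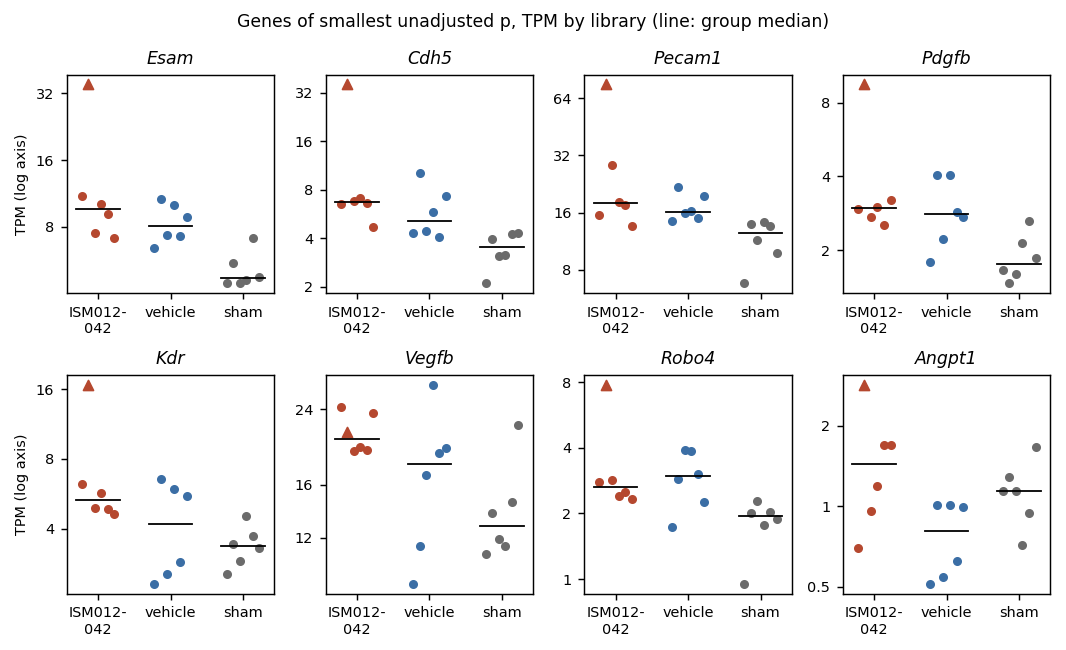
TPM on a log axis in each library for the 8 genes of smallest unadjusted p over the 3 comparisons, by group; lines are group medians and the triangle is ISM012-042 replicate 2. The triangle is the highest point in every panel except Vegfb, and the sham points of Esam, Cdh5, Kdr and Robo4 all lie below the ISM012-042 points.

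Among the receptors the medians of the differences were 0.16 for vehicle against sham, 0.41 for ISM012-042 against vehicle and 0.57 for ISM012-042 against sham; without ISM012-042 replicate 2 the values with the compound were 0.10 and 0.34. Kdr (chromosome 5, 75932827 to 75979072), the main signalling receptor for VEGF-A, had a lowest, median and highest value of 4.61, 5.30 and 16.7 TPM in ISM012-042 libraries, 2.31, 4.19 and 6.56 TPM in vehicle libraries, and 2.55, 3.37 and 4.51 TPM in sham libraries. All ISM012-042 libraries lay above all sham libraries, and vehicle spanned both. Kdr differed by 0.77 ± 0.27 for ISM012-042 against sham (adjusted p = 0.151 in limma), by 0.57 ± 0.27 for ISM012-042 against vehicle (adjusted p = 0.262) and by 0.20 ± 0.27 for vehicle against sham (adjusted p = 0.764). Without replicate 2 the values with ISM012-042 were 0.52 ± 0.22 and 0.32 ± 0.22.

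Flt1, which also binds VEGF-B and PlGF, averaged 4.46 ± 3.89 TPM in ISM012-042, 2.77 ± 1.20 TPM in vehicle and 2.04 ± 0.612 TPM in sham. Flt4, the receptor of VEGF-C on lymphatic vessels, averaged 4.15 ± 3.82 TPM in ISM012-042, 2.94 ± 1.09 TPM in vehicle and 2.63 ± 0.892 TPM in sham. Nrp1, a VEGF and semaphorin co-receptor that other cells carry too, averaged 11.3 ± 6.20, 7.84 ± 2.25 and 6.71 ± 0.901 TPM in ISM012-042, vehicle and sham. Without replicate 2 the ISM012-042 mean of Flt1 was 2.90 ± 0.769 TPM, that of Flt4 2.64 ± 1.08 TPM and that of Nrp1 8.76 ± 0.891 TPM.

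Tek, the angiopoietin receptor, averaged 4.18 ± 2.39 TPM in ISM012-042, 2.66 ± 0.601 TPM in vehicle and 2.52 ± 0.535 TPM in sham. Its partner Tie1 averaged 5.71 ± 5.22, 3.62 ± 0.815 and 2.55 ± 0.407 TPM in these groups. Without replicate 2 the ISM012-042 means were 3.21 ± 0.232 TPM of Tek and 3.60 ± 0.862 TPM of Tie1. Aplnr, the apelin receptor, averaged 3.43 ± 4.76 TPM in ISM012-042, 1.52 ± 0.909 TPM in vehicle and 1.5 ± 0.299 TPM in sham. Replicate 2 gave 13.1 TPM of Aplnr, 4.51 times the next library, the largest such ratio among the 33 genes; without it the ISM012-042 mean was 1.5 ± 0.701 TPM.

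The 6 tested growth factors had a median difference of 0.16 for vehicle against sham, with 4 positive, 0.30 for ISM012-042 against vehicle and 0.43 for ISM012-042 against sham; without ISM012-042 replicate 2 the 4 then tested had medians of 0.22 and 0.24 in the last 2 comparisons. Vegfb (chromosome 19, 6982472 to 6987651), a VEGF ligand of Flt1 made by many cell types, ran from 19.2 to 24.3 TPM in ISM012-042 libraries (median 20.4), from 9.37 to 27.4 TPM in vehicle libraries (median 17.9) and from 11 to 22.1 TPM in sham libraries (median 12.8). The ISM012-042 libraries lay close together, vehicle libraries were spread on both sides of them, and 1 sham library, replicate 6, reached their range. The difference was 0.59 ± 0.21 for ISM012-042 against sham (adjusted p = 0.155 in limma) and was 0.58 ± 0.23 without replicate 2.

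Pdgfb (chromosome 15, 79995865 to 80024614), through which endothelium recruits pericytes, ran from 2.52 to 9.51 TPM in ISM012-042 libraries (median 2.97), from 1.78 to 4.07 TPM in vehicle libraries (median 2.80) and from 1.46 to 2.64 TPM in sham libraries (median 1.76). The groups overlapped, by 1 sham library in the case of ISM012-042 and sham. The difference was 0.67 ± 0.24 for ISM012-042 against sham (adjusted p = 0.147 in limma), and without replicate 2 it was 0.43 ± 0.17.

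Angpt1 (chromosome 15, 42424667 to 42676977), the ligand that activates Tek, ran from 0.698 to 2.85 TPM in ISM012-042 libraries (median 1.44), from 0.513 to 1.01 TPM in vehicle libraries (median 0.807) and from 0.718 to 1.67 TPM in sham libraries (median 1.14). Vehicle libraries were the lowest as a group and overlapped both others. It was the 1 gene at an unadjusted p under 0.05 for ISM012-042 against vehicle, with a difference of 0.46 ± 0.18 (adjusted p = 0.243 in limma), which was 0.32 ± 0.16 (adjusted p = 0.359) without ISM012-042 replicate 2. For vehicle against sham it was -0.27 ± 0.18 (adjusted p = 0.463). Angpt2, which counteracts Angpt1 at Tek, averaged 1.59 ± 1.86 TPM in ISM012-042, 0.999 ± 0.697 TPM in vehicle and 0.803 ± 0.232 TPM in sham. Its ISM012-042 mean was 0.844 ± 0.307 TPM without replicate 2, below vehicle.

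Vegfc averaged 3.64 ± 2.74 TPM in ISM012-042, 2.31 ± 0.857 TPM in vehicle and 2.77 ± 0.872 TPM in sham, and with Angpt1 and Aplnr was one of the 3 genes lower in vehicle than in sham, at -0.19 ± 0.28. Pgf, encoding PlGF, averaged 1.79 ± 1.90, 1.77 ± 2.44 and 0.716 ± 0.310 TPM in ISM012-042, vehicle and sham, with vehicle replicate 2 at 6.72 TPM and ISM012-042 replicate 2 at 5.63 TPM. Apln, encoding apelin, averaged 1.51 ± 2.69 TPM in ISM012-042, 0.779 ± 0.901 TPM in vehicle and 0.339 ± 0.102 TPM in sham. The same 2 libraries held the highest Apln values, 6.96 TPM in ISM012-042 and 2.57 TPM in vehicle, and they were also the highest in the neutrophil marker sum. Without ISM012-042 replicate 2 the mean of that group was 2.57 ± 0.956 TPM for Vegfc. It was 1.02 ± 0.254 TPM for Pgf and 0.417 ± 0.345 TPM for Apln, both below vehicle.

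The 2 genes of sprouting vessels had a median of 0.06 for vehicle against sham. Dll4 averaged 5.05 ± 1.73 TPM in ISM012-042, 3.74 ± 1.19 TPM in vehicle and 3.31 ± 0.734 TPM in sham, and Esm1, a secreted tip cell proteoglycan, averaged 1.77 ± 0.880, 1.36 ± 0.503 and 1.35 ± 0.597 TPM in these groups. For vehicle against sham they differed by 0.11 ± 0.20 and 0.01 ± 0.21. Of the transcription factors, Sox18, which acts upstream of Prox1, averaged 8.79 ± 8.30 TPM in ISM012-042, 5.39 ± 1.86 TPM in vehicle and 3.96 ± 1.72 TPM in sham. Erg, an ETS factor that maintains endothelial identity, averaged 3.06 ± 2.04, 2.09 ± 0.476 and 1.58 ± 0.558 TPM in ISM012-042, vehicle and sham. Sox17, an arterial factor, averaged 1.24 ± 0.544 TPM in ISM012-042, 0.847 ± 0.403 TPM in vehicle and 0.571 ± 0.214 TPM in sham, too low to be tested. Without replicate 2 the ISM012-042 means were 4.41 ± 0.812 TPM of Dll4 and 1.43 ± 0.351 TPM of Esm1. Those of the transcription factors were then 5.43 ± 1.29 TPM of Sox18, 2.25 ± 0.557 TPM of Erg and 1.02 ± 0.179 TPM of Sox17.

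None of the 3 lymphatic genes passed in any comparison. Lyve1, a hyaluronan receptor of lymphatic capillaries and some macrophages, averaged 20.1 ± 15.8 TPM in ISM012-042, 16.2 ± 6.48 TPM in vehicle and 11.4 ± 2.72 TPM in sham. Prox1 averaged 2.74 ± 0.597, 2.12 ± 0.742 and 1.97 ± 0.517 TPM in ISM012-042, vehicle and sham, and its difference for vehicle against sham was 0.05 ± 0.17. Pdpn, a mucin-type protein of lymphatic endothelium that fibroblasts also make, averaged 28.0 ± 39.3 TPM in ISM012-042, 19.2 ± 13.8 TPM in vehicle and 9.07 ± 2.07 TPM in sham. In replicate 2 Prox1 was at 3.81 TPM, 1.14 times the next library, whereas Lyve1 was at 2.03 times and Pdpn at 2.41 times the next. Without it the ISM012-042 mean of Lyve1 was 13.8 ± 2.66 TPM, and the difference of Pdpn between ISM012-042 and vehicle was -0.43 ± 0.36, against 0.09 ± 0.52 with it.

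A plain ratio of a pair of genes within a library does not depend on the library total. Adding 1 to each TPM, as was done here, brings back some dependence for low genes such as Angpt1, Angpt2 and Prox1. For 6 ratios, each taken as log2 of (TPM + 1), the 3 comparisons were tested by exact two-sided permutation of 6 against 6 libraries with Benjamini-Hochberg adjustment over the 18 tests; the smallest p possible is 0.00216. None passed. Prox1 to Pecam1, lymphatic against general endothelial signal, was -2.56 ± 0.43 in vehicle and -2.07 ± 0.35 in sham (SD, n = 6), a difference of -0.49 with an exact p of 0.0476 and an adjusted p of 0.351. In ISM012-042 it was -2.70 ± 0.71, a difference from sham of -0.63 (exact p = 0.0563, adjusted p = 0.351), which was -0.37 without replicate 2 (exact p = 0.11). Lyve1 to Pecam1 was -0.41 ± 0.42 in ISM012-042 and -0.03 ± 0.22 in sham, a difference of -0.38 (exact p = 0.0779, adjusted p = 0.351).

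Flt4 to Kdr, the lymphatic against the blood vessel VEGF receptor, was -0.77 ± 0.43 in ISM012-042 and -0.30 ± 0.33 in sham, a difference of -0.46 (exact p = 0.0758, adjusted p = 0.351). Angpt2 to Angpt1 was 0.11 ± 0.45 in vehicle and -0.25 ± 0.32 in sham, a difference of 0.36 (exact p = 0.149, adjusted p = 0.538). Plvap to Pecam1 was 0.39 ± 0.42 in ISM012-042, 0.49 ± 0.26 in vehicle and 0.40 ± 0.30 in sham. Vegfc to Vegfb was -2.42 ± 0.74, -2.43 ± 0.82 and -2.0 ± 0.67 in these groups. For the last 2 ratios the groups overlapped throughout.

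**Figure D5:**
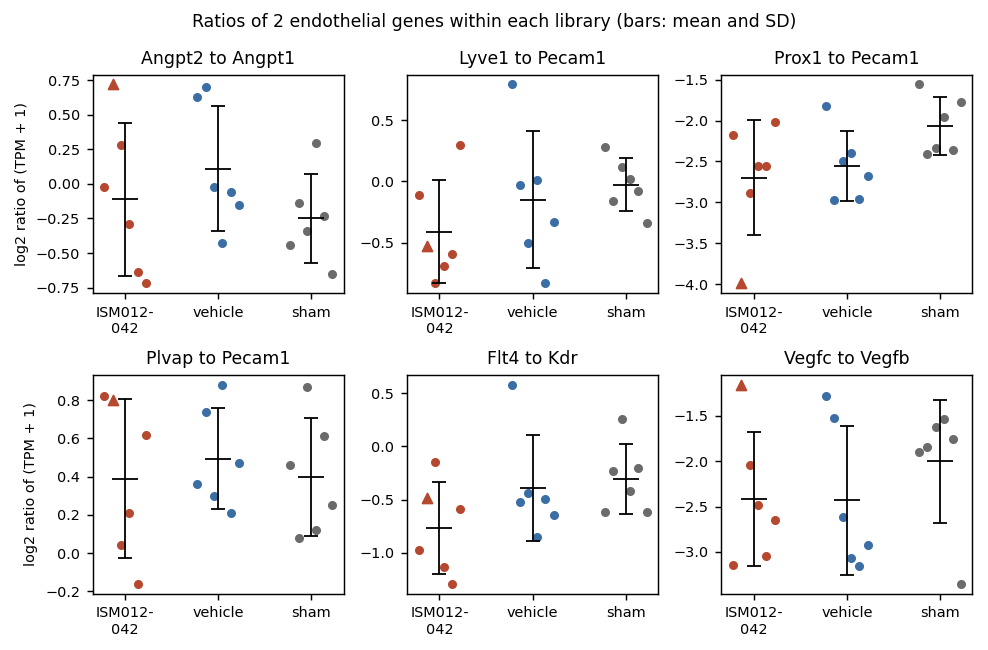
Log2 ratio of (TPM + 1) between 2 genes in each library, by group, with mean and SD; the triangle is ISM012-042 replicate 2. The groups overlap in all 6 ratios, and ISM012-042 replicate 2 has the lowest Prox1 to Pecam1 ratio, -3.99.

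A wider list of vessel genes outside the 33 held 58 genes of the table, of which 53 were tested. In vehicle against sham 4 fell and 0 rose, 7.55% of the list, where 4.46% of all genes passed. Efnb2, Smad6 and Klf4 passed with each library left out in turn. Efnb2, the ephrin of arterial endothelium that epithelium also makes, averaged 28.9 ± 4.90 TPM in ISM012-042, 22.3 ± 5.35 TPM in vehicle and 42.0 ± 7.65 TPM in sham, and fell by 0.90 ± 0.17 in vehicle against sham (adjusted p = 0.00648 in limma). Smad6, an inhibitor of BMP signalling, averaged 5.89 ± 0.674, 3.76 ± 0.760 and 6.89 ± 1.66 TPM in ISM012-042, vehicle and sham, and fell by 0.72 ± 0.15 in vehicle (adjusted p = 0.012 in limma). Klf4, a factor of endothelium and of differentiated epithelium, averaged 237 ± 45.0 TPM in ISM012-042, 182 ± 39.1 TPM in vehicle and 310 ± 58.0 TPM in sham, and fell by 0.78 ± 0.18 (adjusted p = 0.017). Clec14a, an endothelial lectin, averaged 7.6 ± 2.23 TPM in ISM012-042, 4.78 ± 1.07 TPM in vehicle and 8.97 ± 2.44 TPM in sham, and fell by 0.78 ± 0.19 (adjusted p = 0.0265 in limma). It no longer passed when vehicle replicate 3 or 5 or sham replicate 2, 4 or 5 was left out, with an adjusted p of up to 0.0745.

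Angptl4, a secreted inhibitor of lipoprotein lipase and a target of hypoxia-inducible factor, is described because its call turned with the setting, after its values were seen. It averaged 37.1 ± 35.9 TPM in ISM012-042, 24.8 ± 14 TPM in vehicle and 4.53 ± 5.54 TPM in sham. The 6 adipocyte markers summed to a median of 645 TPM in ISM012-042, 261 TPM in vehicle and 27.3 TPM in sham libraries. Their sums ran from 69.1 to 1337, from 2.26 to 1416 and from 0.622 to 1489 TPM in these groups. The part of adipocyte content in the Angptl4 values was not tested. For vehicle against sham Angptl4 differed by 2.47 ± 0.72 (adjusted p = 0.0612 in limma). It passed as higher with median-ratio scaling (2.60 ± 0.72, adjusted p = 0.0284), with mitochondrial genes left out (adjusted p = 0.0324), and without ISM012-042 replicate 2 (adjusted p = 0.0433) or 3, vehicle replicate 1 or sham replicate 6. For ISM012-042 against sham it differed by 2.64 ± 0.72 (adjusted p = 0.0776 in limma). There too it passed as higher in limma with mitochondrial genes left out (2.75 ± 0.76, adjusted p = 0.0381) and with the Hoxb13 covariate (2.37 ± 0.70, adjusted p = 0.0464). The same held without ISM012-042 replicate 3 (adjusted p = 0.0362) or sham replicate 6 (adjusted p = 0.0386), but not with median-ratio scaling. Without ISM012-042 replicate 2 its ISM012-042 mean was 24.5 ± 20.2 TPM.

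The epithelial markers summed to between 7115 and 8505 TPM in ISM012-042, between 4010 and 10179 TPM in vehicle and between 6507 and 10665 TPM in sham libraries; their part in these falls was not tested. The 4 genes that fell were higher in ISM012-042 than in vehicle by 0.38 to 0.56, without passing (adjusted p from 0.233 to 0.252 in limma). They were picked for low values in these same vehicle libraries, so a positive difference from vehicle was likely beforehand. In that comparison 92.1% of all genes were positive, with a median of 0.30. With median-ratio scaling Efnb2 and Klf4 passed in limma as lower in ISM012-042 than in sham. They differed by -0.73 ± 0.11 (adjusted p = 0.00084) and -0.60 ± 0.15 (adjusted p = 0.0244), while Smad6 and Clec14a did not pass there. Vehicle differed from sham by similar amounts with that scaling, -0.80 ± 0.11 for Efnb2 and -0.68 ± 0.15 for Klf4. In ISM012-042 against vehicle and against sham, 0 of the 53 passed; 12 and 23 had an unadjusted p under 0.05 in limma, beside 19.0% and 20.8% of all genes. Vegfa, the main VEGF ligand and a target of hypoxia-inducible factor, averaged 50.3 ± 20.3 TPM in ISM012-042, 37.7 ± 22.2 TPM in vehicle and 48.6 ± 7.51 TPM in sham. It differed by -0.52 ± 0.29 for vehicle against sham, by 0.51 ± 0.29 for ISM012-042 against vehicle and by -0.01 ± 0.29 for ISM012-042 against sham, and none of these passed (adjusted p = 0.365, 0.298 and 0.991 in limma). The first ranged from -0.76 to -0.30 with each library left out in turn, and passed at -0.76 ± 0.20 (adjusted p = 0.0414) with both ISM012-042 replicate 2 and vehicle replicate 2 left out.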

How the data were processed

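The deposited table, as made by the authors, holds TPM per gene symbol in 18 libraries. The submitters' processing notes name mm10 and DRAGEN 4.0.3; how reads were counted, and against which annotation, is not given there. Groups and replicate numbers come from the sample titles. The 33 genes and the lists were chosen with earlier results of these data known. Values were analysed as log2(TPM + 1). Genes of at least 1 TPM in at least 6 libraries, 14129 in all, were fitted in limma 3.58.1 (R 4.3.3) with all 18 libraries in 1 fit, trend and robust empirical Bayes, and Benjamini-Hochberg adjustment (threshold 0.05); the fit was tested on simulated data. Genes described library by library were those past the threshold, filled up to 8 by smallest unadjusted p over the 3 comparisons. From the other list up to 6 passing genes per comparison, and Vegfa, were named, as was every gene of a ratio. TPM is not a count, so no count model was used, and an abundant class of transcripts lowers all other values. Alternatives were pseudocounts of 0.1 and 5, no filter, a minimum of 5 TPM, median-ratio scaling, leaving out the 13 mitochondrial genes, fitting 2 groups alone, a Hoxb13 covariate, each library left out in turn and a block for the replicate number. Combinations with ISM012-042 replicate 2 left out were added after seeing the data.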

Additional observations from a re-analysis of the deposited data

Results flagged for a closer look

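In groups of 6, a library was listed where its gap to the nearest other library was too large a share of the group's range by Dixon's test. Of 117 groups examined 33 gave such a library, where chance gives about 1 in 20 for a single group. The 117 share the same 18 libraries and are not independent, so the 2 shares cannot be compared as a test. ISM012-042 replicate 2 accounted for 27 of them. Among surface genes it had 75.6 TPM of Pecam1, 35.9 of Cdh5, 44.1 of Eng, 47.4 of Egfl7, 28.0 of Emcn, 7.79 of Robo4, 35.1 of Esam, 8.44 of Vwf and 132 of Plvap. Among receptors it had 16.7 TPM of Kdr, 12.3 of Flt1, 11.7 of Flt4, 9.05 of Tek, 16.3 of Tie1, 23.8 of Nrp1 and 13.1 of Aplnr. Among growth factors it had 5.35 TPM of Angpt2, 6.96 of Apln, 9.51 of Pdgfb, 8.95 of Vegfc and 5.63 of Pgf. It also had 3.45 TPM of Esm1, 2.30 of Sox17, 25.6 of Sox18, 7.10 of Erg, 51.9 of Lyve1 and 108 of Pdpn.

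The other 6 were spread over 4 libraries. Vehicle replicate 2 had 2.57 TPM of Apln and 6.72 TPM of Pgf, both high for its group. Vehicle replicate 1 had a Flt4 to Kdr log2 ratio of 0.58, the highest of its group. Sham replicate 1 had 0.952 TPM of Robo4, below the rest of sham. Sham replicate 6 had 22.1 TPM of Vegfb, above the rest of sham, and a Vegfc to Vegfb log2 ratio of -3.35, below it.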

How the results depend on the processing

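In ISM012-042 against sham the count of endothelial genes passing, 0 in the reported fit, was 2 with mitochondrial genes left out (Cdh5 and Esam, adjusted p = 0.0438 and 0.0335 in limma, 4.87% of all genes), 1 with the 2 groups fitted alone (Vegfb, adjusted p = 0.0448, 3.38%), 6 with the Hoxb13 covariate (Pecam1, Cdh5, Esam, Plvap, Dll4, Lyve1, 7.84%), 0 with that covariate and without ISM012-042 replicate 2 (0.236%), and 1 (Esam) without ISM012-042 replicate 2, alone (0.271%) or with vehicle replicate 2 also left out. In vehicle against sham it was 1 without ISM012-042 replicate 2, 6 with median-ratio scaling in addition (Pecam1, Eng, Tie1, Plvap, Cdh5, Esam, where 4.9% of all genes passed as higher) and 5 with the Hoxb13 covariate in addition (Pecam1, Egfl7, Lyve1, Plvap, Esam, where 1.73% did). It was 0 in ISM012-042 against vehicle in all settings run, where the median was -0.11 with median-ratio scaling and without ISM012-042 replicate 2. Leaving out each library in turn gave 0 to 1 in both comparisons with sham. In the wider list, ISM012-042 against sham had 3 passing with median-ratio scaling, mitochondrial genes left out or the 2 groups alone (5.48%, 7.52% and 5.02% of all genes), 11 with the Hoxb13 covariate (9.76%), and, without ISM012-042 replicate 2, 0 with that covariate (0.821%) and 1 with median-ratio scaling (3.31%); leaving out a library gave 0 to 1 there (1 without ISM012-042 replicate 3 or sham replicate 6) and 3 to 6 in vehicle against sham. In ISM012-042 against sham the 3 with median-ratio scaling were Efnb2 and Klf4 as lower and Ephb4 as higher. With mitochondrial genes left out they were Efnb2 as lower and Angptl4 and Ephb4 as higher. With the 2 groups alone they were Efnb2 as lower and Adgrl4 and Ushbp1 as higher. The 11 with the Hoxb13 covariate were all higher. Vegfa passed as lower in vehicle than in sham (adjusted p = 0.0414 in limma) without ISM012-042 replicate 2 and vehicle replicate 2. The cause of these shifts was not tested.

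Small differences turned sign. In ISM012-042 against vehicle, Robo4 (0.10) became -0.16 with median-ratio scaling and -0.04 with mitochondrial genes left out, Flt4 (0.20) -0.04, Pdgfb (0.24) -0.01, Lyve1 (0.16) -0.14 and Pdpn (0.09) -0.21 with median-ratio scaling, and Pdpn -0.06 with mitochondrial genes left out and -0.07 with the Hoxb13 covariate. With that covariate Vegfc became 0.14 in vehicle against sham and Vegfa 0.11 in ISM012-042 against sham, and with median-ratio scaling Vegfc became 0 in ISM012-042 against sham. A pseudocount of 5 gave 0.03 for Plvap to Pecam1 in ISM012-042 against sham and -0.08 for Vegfc to Vegfb in ISM012-042 against vehicle. With each library left out in turn, ISM012-042 against vehicle ranged from -0.12 to 0.17 for Robo4, -0.10 to 0.50 for Plvap, -0.11 to 0.37 for Flt4, -0.15 to 0.31 for Lyve1, -0.43 to 0.38 for Pdpn, -0.28 to 0.12 for Prox1 to Pecam1, -0.19 to 0 for Plvap to Pecam1 and -0.24 to 0.24 for Vegfc to Vegfb. ISM012-042 against sham ranged from 0 to 0.48 for Flt4, -0.08 to 0.32 for Vegfc, -0.19 to 0.07 for Vegfa, -0.03 to 0.26 for Angpt2 to Angpt1 and -0.10 to 0.10 for Plvap to Pecam1. Vehicle against sham ranged from -0.01 to 0.22 for Flt4, -0.05 to 0.17 for Prox1, -0.31 to 0.01 for Lyve1 to Pecam1 and -0.28 to 0.03 for Flt4 to Kdr. For Robo4, Plvap, Flt4, Lyve1 and Pdpn the lowest value against vehicle came without ISM012-042 replicate 2.

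The labels do not say whether libraries of the same replicate number share anything else. After each gene's group mean was subtracted, same-numbered libraries correlated between -0.380 and 0.609 over the 3 comparisons. The highest was for replicate 2 in ISM012-042 against vehicle. Such correlations cannot settle whether a number marks a pair or a batch. With the replicate number as a block, 0 endothelial genes passed in each comparison, the medians were 0.26, 0.35 and 0.59, and 4, 0 and 0 genes of the wider list passed, as without it. TPM carries no depth, so the precision of low genes such as Apln and Sox17 is unknown beyond the spread between libraries.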
